A study of Mus musculus with 8 samples.

Results

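Lipid droplets are the organelles in which hepatocytes store triglyceride and cholesteryl ester, and they fill the liver when fat intake outruns secretion and oxidation. Their surface carries coat proteins of the perilipin family, which control access of lipases, and proteins of the CIDE family, which sit at contacts between droplets and pass lipid from small to large ones. Breakdown starts with adipose triglyceride lipase, encoded by Pnpla2, which is activated by Abhd5 and inhibited by G0s2. The 10 genes described here cover these roles and were listed by name: the perilipins Plin2, Plin3, Plin4 and Plin5, the CIDE genes Cidea, Cideb and Cidec, the lipase Pnpla2, its inhibitor G0s2, and Hsd17b13, a hydroxysteroid dehydrogenase of the droplet surface found mainly in liver. All 10 were found among the 49585 genes of the count file, and all 10 passed the filter on low counts that left 16496 genes for testing. Cidea passed only through the LP245/+ livers.

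Whole livers of male mice were sequenced that had eaten HFCD, rich in fat and without added choline, for 3 months from 21 days of age. The 3 LP+/+ livers carried no Alb-Cre according to their labels (Alb-Cre0), so their p53 genes were wild type in every cell, with an unrecombined Trp53fl allele in replicates 1 and 2 and an unrecombined Trp53wm-R245W allele in replicate 3. The 2 LPfl/+ livers (Alb-CreTG, Trp53fl/+) had lost 1 copy of Trp53, and the 3 LP245/+ livers (Alb-CreTG, Trp53wm-R245W/+) expressed the p53 R245W mutant beside 1 wild-type copy. Because the albumin promoter drives Cre, recombination is limited to hepatocytes and bile duct cells, and RNA of whole liver also holds transcripts of unrecombined cells. The labels and the study's text differ on this group, since its results describe LP+/+ mice as carriers of Alb-Cre, while its methods allow controls with or without Cre. If the labels hold, the presence of Cre and the p53 genotype cannot be told apart in comparisons with LP+/+. The comparisons ask whether loss of 1 p53 copy, or a mutant copy, goes with a different level of these transcripts in the liver on this diet.

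Each liver gave between 26304526 and 31370714 counts. Library numbers in the labels run in 2 series. The first holds all 3 LP245/+ livers with LP+/+ replicates 2 and 3, and the second holds both LPfl/+ livers with LP+/+ replicate 1, so in LP245/+ versus LPfl/+ the genotype and the series cannot be told apart. Trp53 itself had a log2 fold change of -0.58 in LPfl/+ and of 0.24 in LP245/+ relative to LP+/+, and its LPfl/+ livers lay below all others. Hepatocyte markers summed to between 95693 and 142550 normalized CPM, counts scaled to 1000000 per library, in the 8 livers, and the lists for other cells to far less: 439 to 550 CPM for stellate cells, 250 to 402 for endothelial cells, 195 to 293 for macrophages and Kupffer cells, 3.83 to 7.47 for cholangiocytes and 1.08 to 2.40 for lymphocytes. The adipocyte list summed to between 12.8 and 19.0 CPM, and of its defining genes Lep had 0 counts in every liver, and Plin1, Adipoq and Ucp1 had 0 or 1. Nearly all of that sum came from Fabp4 (163 to 258 counts), Lipe (139 to 257) and Cfd (1 to 34), which are not limited to adipocytes.

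No member passed the cutoff of the study, a log2 fold change of 1 or more in size with an adjusted p of at most 0.05, in any comparison. The numbers were 0 of 10 in LP245/+ versus LP+/+, where 0.00606% of all tested genes passed, 0 of 10 in LPfl/+ versus LP+/+, where 0% passed, and 0 of 10 in LP245/+ versus LPfl/+, where 0% passed. The test was edgeR's quasi-likelihood F test with Benjamini-Hochberg adjustment. DESeq2 also called 0 of 10 members in each, beside 10 of 24349, 9 of 15555 and 56 of 14382 genes with an adjusted p. Counts over all genes also moved with the livers fitted: without LP+/+ replicate 1, edgeR passed 3, 59 and 47 genes in the 3 comparisons, and 0 members. At an unadjusted p below 0.05 there were 2 members in LP245/+ versus LP+/+ (Plin5 and Cidea), against 5.93% of all genes. In LPfl/+ versus LP+/+ there were 0, against 6.89%. In LP245/+ versus LPfl/+ there were 2 (Cidea and Cideb), against 8.51%. Testing for any difference between the 3 genotypes, 0 members passed an adjusted p of 0.05, as did 0% of all genes, and 1 member, Cidea, had an unadjusted p below 0.05, against 7.79% of all genes. Cidea entered these tests only through LP245/+, the group in which it is high, and without it the members at an unadjusted p below 0.05 are Plin5 in LP245/+ versus LP+/+ and Cideb in LP245/+ versus LPfl/+. In each of the 3 pairwise comparisons 5 members had a positive and 5 a negative fold change, and the share of all genes with a positive one was 50.6% in LP245/+ versus LP+/+, 49.8% in LPfl/+ versus LP+/+ and 50.8% in LP245/+ versus LPfl/+. The members' median log2 fold change was 0.01 in LP245/+ versus LP+/+, -0.01 in LPfl/+ versus LP+/+ and -0.01 in LP245/+ versus LPfl/+, where the medians over all genes were 0.00 each.

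**Figure D1:**
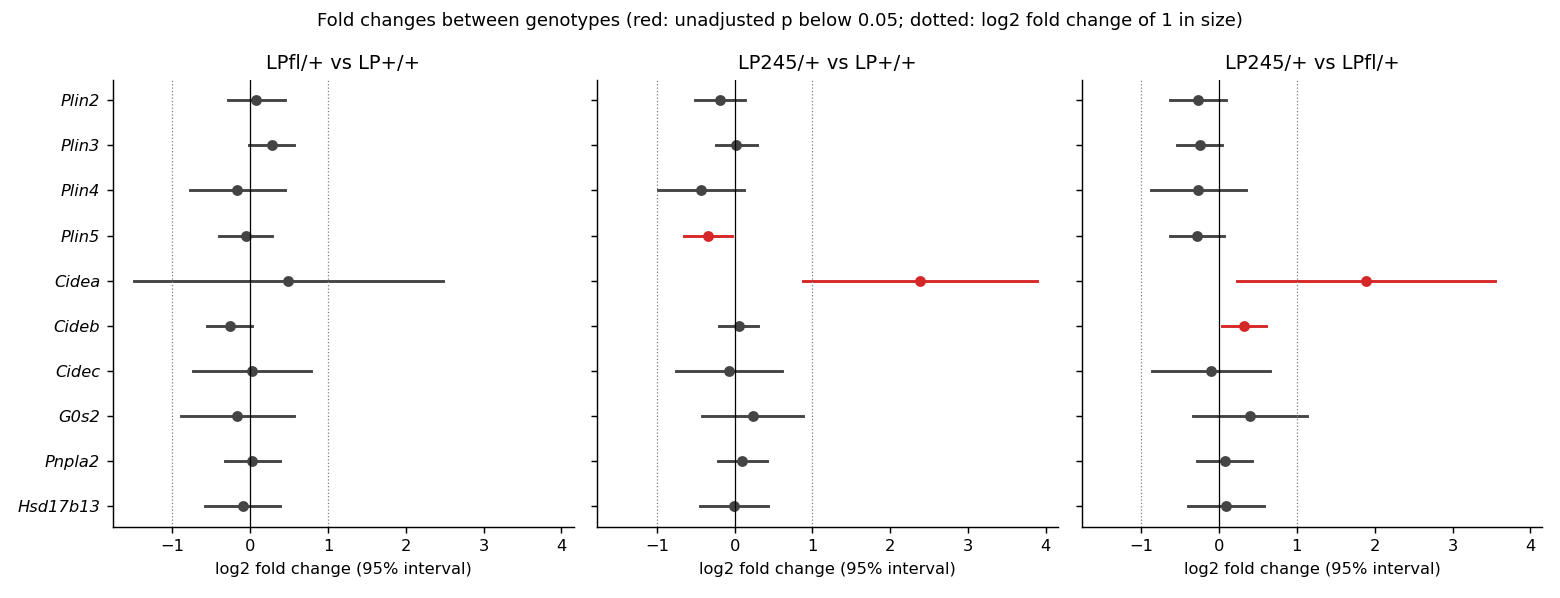
Log2 fold change of each member (point) with its 95% interval (line) from edgeR, in 3 pairwise comparisons of genotypes; red marks an unadjusted p below 0.05 and dotted lines a log2 fold change of 1 in either direction. Cidea stands far to the right in both comparisons of LP245/+, and the other 9 members reach at most 0.43 in size.

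In length-corrected levels the members spanned a wide range. Hsd17b13 had 187 ± 31.1 CPM per kb of exon (SD, n = 8 livers), followed by Plin2 with 167 ± 22.3 and G0s2 with 87.7 ± 26.8. Hsd17b13 was above Plin2 in 6 of the 8 livers and Plin2 above G0s2 in 7 of 8, so the order of these neighbours was not the same in every liver. Plin5 followed at 21.8 ± 3.55 CPM per kb and lay below G0s2 and above Plin3 in all 8. Plin3 (11.7 ± 1.44), Cideb (10.6 ± 1.27) and Pnpla2 (9.47 ± 1.196) formed a close group, with Plin3 above Cideb in 5 of 8 livers and Cideb above Pnpla2 in 5 of 8. Plin4 (2.44 ± 0.631) and Cidec (2.41 ± 0.666) lay within their spread of each other. Cidea, at 0.249 ± 0.220, was 9.71-fold below Cidec and lay below it in all 8 livers.

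**Figure D2:**
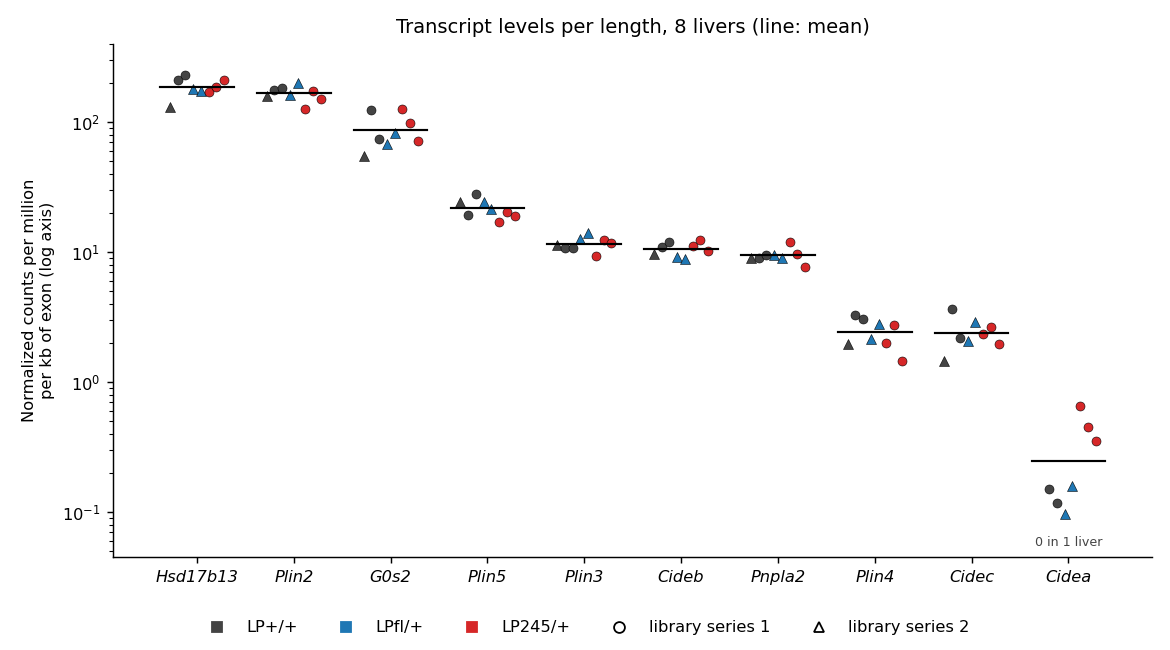
Normalized CPM per kb of exon (log axis) for the 10 members in 8 livers, ordered by their mean (black line), with colour for genotype and shape for library series; the 1 liver with a Cidea count of 0 is written in words. Hsd17b13 and Plin2 lead at means of 187 and 167, and Cidea is last at 0.249.

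Sequence before the transcription start is shown for Cidec, because it was the only member with a match to the p53 half-site motif and it has 2 annotated starts. RefSeq (GRCm38.p6) gave windows of 250 bases before the start for 9 of the 10 members, 11 windows in all, and Cidea was not matched. Both strands were searched. The capitals mark a p53 half-site in the first sequence (chr6:113435761-113436010, minus strand, ending at the 5′ end of the annotated gene) and the C/EBP motif TTGCNNAA in the second (chr6:113434765-113435014, minus strand, in an intron of Cidec).
Cidec start 1: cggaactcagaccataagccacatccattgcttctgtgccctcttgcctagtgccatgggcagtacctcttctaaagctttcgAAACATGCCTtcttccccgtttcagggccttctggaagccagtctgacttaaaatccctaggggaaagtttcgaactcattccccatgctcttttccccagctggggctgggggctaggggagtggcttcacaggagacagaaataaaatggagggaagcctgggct
Cidec start 2: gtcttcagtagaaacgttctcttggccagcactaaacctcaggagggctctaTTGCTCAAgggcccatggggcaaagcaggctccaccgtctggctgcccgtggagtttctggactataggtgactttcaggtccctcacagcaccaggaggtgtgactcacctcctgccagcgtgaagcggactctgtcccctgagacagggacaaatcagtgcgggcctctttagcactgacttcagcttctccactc

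The half-site lies 167 to 158 bases before its start and the C/EBP match 198 to 191 bases before the other. Half-sites of this form occur in 7.13% of the 32851 RefSeq windows of this length, and TTGCNNAA in 9.56%, so a match is a description of the letters only. CCAAT occurs in windows of Plin2, Plin3, Plin4 and Plin5, which together make 4 of the 11 windows, against 33.8% of all windows. The PPAR element of the DR1 type, AGGNCA repeated in the same direction with any base between the copies, was not found in the 11 windows and occurs in 0.338% of all. TATAAA occurs in the Cideb window and in 12.4% of all windows, while the E-box CACGTG and the cAMP element, present in 6.02% and 1.55% of all, were not found in the 11.

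Plin2 (chr4:86648386-86670060, minus strand), the main droplet coat of hepatocytes, had 555, 622 and 639 CPM in LP+/+ replicates 1 to 3, 570 and 708 in LPfl/+, and 447, 612 and 532 in LP245/+. Its lowest liver was LP245/+ replicate 1 and its highest LPfl/+ replicate 2, and the genotypes overlapped in every pair. The log2 fold change was -0.19 (standard error 0.15, 95% interval -0.52 to 0.14, adjusted p = 0.858) in LP245/+ versus LP+/+. In LPfl/+ versus LP+/+ it was 0.08 (interval -0.28 to 0.44, adjusted p = 0.938), and in LP245/+ versus LPfl/+ it was -0.27 (interval -0.63 to 0.09, adjusted p = 0.698). No interval reached beyond 0.63 in size. Of the summed CPM per kb of exon of the 4 perilipins, Plin2 made up between 80.5% and 84.1% in the 8 livers.

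Plin3 (chr17:56277476-56292873, minus strand) encodes a perilipin that moves from the cytosol onto nascent droplets. It had 43.4, 41.0 and 40.9 CPM in LP+/+ livers, 47.6 and 53.5 in LPfl/+ livers, and 35.4, 47.2 and 44.8 in LP245/+ livers. Both LPfl/+ livers lay above every liver of the other genotypes. Relative to LP+/+ the log2 fold change in LPfl/+ was 0.28 (standard error 0.13, interval -0.01 to 0.56, adjusted p = 0.738), and in LP245/+ it was 0.02 (interval -0.24 to 0.28). Groups that do not overlap were common in comparisons with LPfl/+, which has 2 livers: in LPfl/+ versus LP+/+ they were found for 2 of 10 members, Plin3 and Cideb, and for 24.9% of all genes. In LP245/+ versus LPfl/+ they were found for 4 of 10, Plin3, Plin5, Cidea and Cideb, and for 25.4% of all genes.

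Plin4 (chr17:56100591-56109803, minus strand), a perilipin with a long repeat region that is abundant in adipose tissue and muscle, was low. It had 11.5, 19.1 and 17.7 CPM in LP+/+ livers, 12.5 and 16.2 in LPfl/+ livers, and 11.5, 15.8 and 8.48 in LP245/+ livers. The lowest liver was LP245/+ replicate 3, and the genotypes overlapped. LP245/+ versus LP+/+ gave a log2 fold change of -0.43 (standard error 0.25, interval -0.98 to 0.12, adjusted p = 0.834), the largest in size among the perilipins. In LPfl/+ it was -0.17 (interval -0.78 to 0.45), and within the second library series, where 1 LP+/+ liver stands against 2 LPfl/+ livers, the log2 ratio of the means was 0.32. Of the 76-base windows of its transcripts, 5.75% occur more than once within a transcript.

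Plin5 (chr17:56111601-56117596, minus strand), the perilipin of oxidative tissues that ties droplets to mitochondria and binds the lipase and its activator, lies next to Plin4. Its levels were 50.8, 40.5 and 58.1 CPM in LP+/+ livers, 51.1 and 44.7 in LPfl/+ livers, and 35.6, 42.6 and 39.8 in LP245/+ livers. LP245/+ lay below both LPfl/+ livers and below 2 of the 3 LP+/+ livers. In LP245/+ its log2 fold change relative to LP+/+ was -0.34 (standard error 0.14, interval -0.65 to -0.03, unadjusted p = 0.0330, adjusted p = 0.816). Within the first library series the log2 ratio of the means was -0.33, from 3 LP245/+ and 2 LP+/+ livers. Between LP245/+ and LPfl/+ the fold change was -0.28 (interval -0.63 to 0.06, adjusted p = 0.650). In LPfl/+ versus LP+/+ it was -0.06 (interval -0.40 to 0.29), and 0.00 when only library totals were used for scaling. In CPM per kb of exon, Plin5 made up between 8.93% and 12.5% of the perilipin sum, second to Plin2 in each liver.

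**Figure D3:**
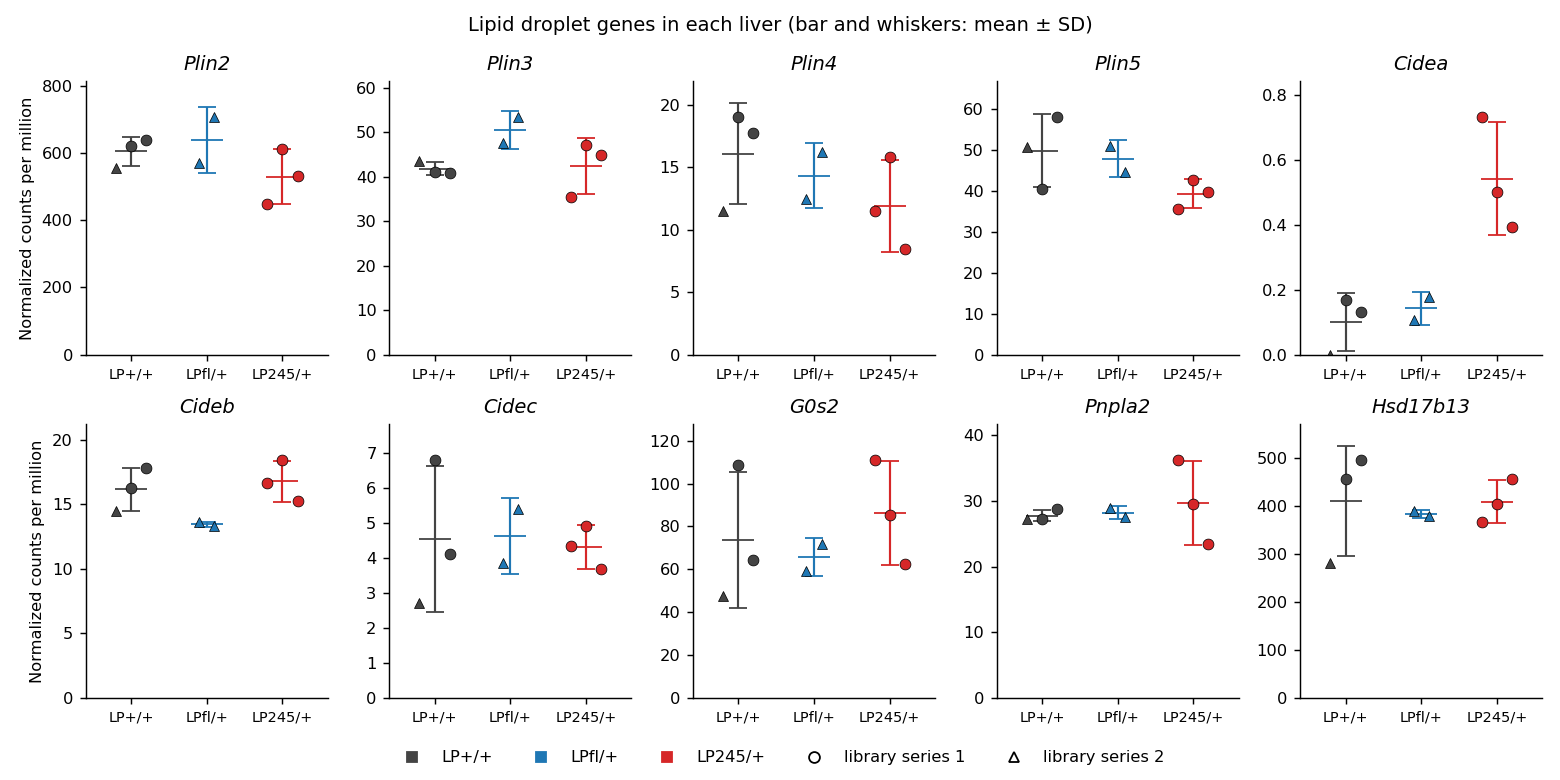
Normalized CPM of each member in each liver, with colour for genotype, circles for the first and triangles for the second library series, and the mean ± SD as a bar with whiskers (n = 3 LP+/+, 2 LPfl/+ and 3 LP245/+). Cidea separates LP245/+ (0.394 to 0.734 CPM) from the rest (0 to 0.178 CPM), and LP+/+ replicate 1 is the lowest liver for Cidea, Cidec, G0s2 and Hsd17b13.

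Among the CIDE genes, Cideb dominated, with between 74.1% and 86.9% of the summed CPM per kb of exon of the 3 genes. Cidec made up between 13.1% and 24.9% of that sum. Cidea (chromosome 18), the CIDE gene of brown fat that also appears in steatotic liver, was at the edge of detection. Its counts were 0, 5 and 4 in LP+/+ livers, 3 and 5 in LPfl/+ livers, and 20, 14 and 11 in LP245/+ livers. The 3 LP245/+ livers lay above all other livers, and in LP245/+ versus LP+/+ Cidea was the 1 member whose groups did not overlap, against 11.6% of all genes. The library of LP+/+ replicate 1, with 0 counts, allows up to 0.105 CPM of the library total at the floor of 3 counts. Cidea was tested only because the 3 LP245/+ livers lay above the filter, which 0 livers of LP+/+ and 0 of LPfl/+ did, so its fold changes and p-values in LP245/+ depend on the group in which it is high and are given as a description. The log2 fold change of LP245/+ versus LP+/+ was 2.38 (standard error 0.67, interval 0.88 to 3.89, unadjusted p = 0.00559, adjusted p = 0.795). Relative to LPfl/+ it was 1.89 (interval 0.23 to 3.55, unadjusted p = 0.0293, adjusted p = 0.533), and with the library series as a covariate this value turned to -3.25, in a fit where the series are linked only by LP+/+ replicate 1, with 0 counts, and LP+/+ replicates 2 and 3. Leaving out each liver in turn gave values between 1.82 and 2.93 in the comparison with LP+/+. Relative to library totals, 45 counts in LP245/+ and 9 in LP+/+ are a ratio of 5.34, with an exact 95% counting interval of 2.58 to 12.4 that covers counting error only and no spread between animals. In LPfl/+ versus LP+/+, with 8 and 9 counts, the ratio was 1.48 (0.498 to 4.33). Summed adipocyte markers were 15.0 to 15.5 CPM in LP+/+, 12.8 to 19.0 in LPfl/+ and 13.6 to 14.1 in LP245/+, and the brown fat gene Ucp1 had 1 count in LP245/+ replicate 1 and 0 in the other 7 livers. In whole liver, a difference in the number of expressing cells and a difference in RNA per cell cannot be told apart.

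Cideb (chr14:55754050-55758458, minus strand), the CIDE gene of hepatocytes that takes part in lipid loading of very low density lipoprotein, had 14.5, 16.3 and 17.8 CPM in LP+/+ livers, 13.6 and 13.3 in LPfl/+ livers, and 16.6, 18.5 and 15.3 in LP245/+ livers. Both LPfl/+ livers lay below all 6 others. The log2 fold change was 0.32 in LP245/+ versus LPfl/+ (standard error 0.13, interval 0.03 to 0.61, unadjusted p = 0.0329, adjusted p = 0.542) and -0.27 in LPfl/+ versus LP+/+ (interval -0.55 to 0.02, adjusted p = 0.744). In LP245/+ versus LP+/+ it was 0.05 (interval -0.20 to 0.31). With the library series as a covariate the first of these was 0.08. Exons of Nop9 on the opposite strand overlap 76.3% of the exon length of Cideb. The strand setting of the counting was not given in the sources used here. The overlap may therefore have added reads to the Cideb counts or removed reads from them.

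Cidec (chr6:113424634-113435760, minus strand), the fusion gene of white fat that is known to be raised in fatty liver, had 2.72, 6.80 and 4.10 CPM in LP+/+ livers, 3.87 and 5.39 in LPfl/+ livers, and 4.33, 4.92 and 3.69 in LP245/+ livers. The lowest and the highest liver were both LP+/+, at a coefficient of variation of 45.8% in that genotype against 14.3% in LP245/+. Its log2 fold change was -0.07 in LP245/+ versus LP+/+ (standard error 0.31, interval -0.76 to 0.61, adjusted p = 0.981) and 0.03 in LPfl/+ versus LP+/+ (interval -0.73 to 0.79, adjusted p = 0.991). In LP245/+ versus LPfl/+ it was -0.10 (interval -0.86 to 0.66). The values within library series stood apart, at a log2 ratio of -0.34 for LP245/+ to LP+/+ in the first series and 0.77 for LPfl/+ to LP+/+ in the second, where the single LP+/+ liver is the one with 2.72 CPM.

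Pnpla2 (chr7:141455198-141460743, plus strand), which encodes the lipase of the first step of triglyceride breakdown, had the smallest coefficient of variation of the members in LP+/+, 3.05%. It had 27.3, 27.2 and 28.7 CPM in LP+/+ livers, 29.0 and 27.5 in LPfl/+ livers, and 36.2, 29.5 and 23.4 in LP245/+ livers. LP245/+ held both the highest and the lowest liver, with a coefficient of variation of 21.6%. For Pnpla2 the log2 fold change was 0.10 in LP245/+ versus LP+/+ (standard error 0.14, interval -0.22 to 0.41, adjusted p = 0.931), 0.03 in LPfl/+ versus LP+/+ (interval -0.33 to 0.38) and 0.07 in LP245/+ versus LPfl/+ (interval -0.28 to 0.43). Differences above about 0.43 on the log2 scale therefore lay outside all 3 intervals.

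G0s2 (chr1:193272161-193273217, minus strand), the inhibitor of that lipase, was among the most variable members. It had 47.7, 109 and 64.5 CPM in LP+/+ livers, 59.4 and 71.9 in LPfl/+ livers, and 111, 85.4 and 62.7 in LP245/+ livers. The genotypes overlapped throughout. The log2 fold change was 0.23 in LP245/+ versus LP+/+ (standard error 0.29, interval -0.41 to 0.87, adjusted p = 0.922), -0.17 in LPfl/+ versus LP+/+ (interval -0.89 to 0.56) and 0.40 in LP245/+ versus LPfl/+ (interval -0.33 to 1.12, adjusted p = 0.783). Within the first library series the log2 ratio of LP245/+ to LP+/+ was 0.00, and within the second that of LPfl/+ to LP+/+ was 0.46.

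Hsd17b13 (chr5:103955440-103977410, minus strand) had 281, 456 and 497 CPM in LP+/+ livers, 390 and 379 in LPfl/+ livers, and 368, 404 and 457 in LP245/+ livers. LP+/+ spanned the whole range of the other genotypes. For Hsd17b13 the log2 fold change was -0.01 in LP245/+ versus LP+/+ (standard error 0.19, interval -0.44 to 0.43, adjusted p = 0.998), -0.10 in LPfl/+ versus LP+/+ (interval -0.59 to 0.39) and 0.09 in LP245/+ versus LPfl/+ (interval -0.39 to 0.58). These values depended on the library series: with the series as a covariate the LPfl/+ value was 0.45 (unadjusted p = 0.0289, adjusted p = 0.883) and that of LP245/+ versus LPfl/+ was -0.67 (unadjusted p = 0.0121, adjusted p = 0.683). The only link between the series is then LP+/+ replicate 1, with 281 CPM, against LP+/+ replicates 2 and 3.

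LP+/+ replicate 1 was the lowest of the 8 livers for 4 of the 10 members, Cidea, Cidec, G0s2 and Hsd17b13, and the lowest for 13.2% of all tested genes. LP245/+ replicate 1 was the lowest for 3 members, Plin2, Plin3 and Plin5, and the highest for 3 others, Cidea, G0s2 and Pnpla2, where it was the lowest for 13.2% and the highest for 15.3% of all genes. Within LP+/+, the 2 livers of the first library series were above the liver of the second by a log2 ratio of 1.01 for Cidec, 0.86 for G0s2, 0.76 for Hsd17b13 and 0.68 for Plin4. For Plin2 this ratio was 0.18, and for Pnpla2 0.03.

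Ratios of paired genes within a liver do not depend on scaling between libraries. The ratio of G0s2, the inhibitor, to Pnpla2, the lipase, was 1.75, 4.005 and 2.25 in LP+/+ livers, 2.05 and 2.62 in LPfl/+ livers, and 3.06, 2.90 and 2.68 in LP245/+ livers. The 3 LP245/+ livers lay above both LPfl/+ livers and inside the range of LP+/+. The mean log2 ratio differed by 0.31 between LP245/+ and LPfl/+ (p = 0.1, two-sided exact permutation test), by 0.20 between LP245/+ and LP+/+ (exact p = 0.7) and by -0.11 between LPfl/+ and LP+/+ (exact p = 0.9). A p of 0.1 is the smallest that 3 livers against 3 or 2 can give, so none of these tests could reach 0.05. Within library series the log2 difference was -0.06 for LP245/+ versus LP+/+ in the first and 0.41 for LPfl/+ versus LP+/+ in the second.

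The ratio of Cidec to Cideb was 0.188, 0.418 and 0.230 in LP+/+ livers, 0.284 and 0.405 in LPfl/+ livers, and 0.260, 0.267 and 0.241 in LP245/+ livers. Both LPfl/+ livers lay above the 3 LP245/+ livers, by a mean log2 difference of -0.41 for LP245/+ versus LPfl/+ (exact permutation p = 0.1), and LP+/+ spanned both. Cideb counts are subject to the overlap with Nop9 given above, and in LP245/+ versus LPfl/+ genotype and library series cannot be told apart. Against LP+/+ the difference was -0.04 for LP245/+ (exact p = 1.0) and 0.37 for LPfl/+ (exact p = 0.5). The ratio of Plin2 to Plin5 ran from 10.9 to 15.8 over the 8 livers, and its log2 differences were 0.13 for LP245/+ and 0.12 for LPfl/+ versus LP+/+ (exact p = 0.5 each) and 0.01 for LP245/+ versus LPfl/+ (exact p = 0.9).

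**Figure D4:**
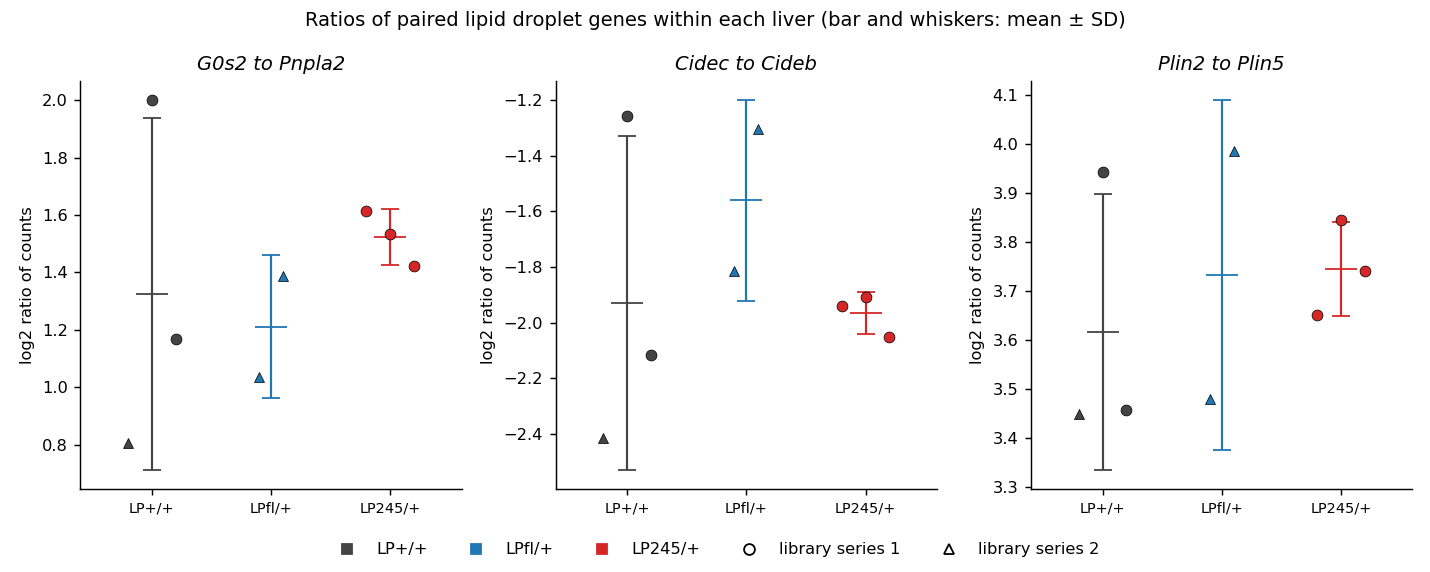
Log2 ratio of the counts of paired members within each liver, by genotype, with circles for the first and triangles for the second library series and the mean ± SD as a bar with whiskers (n = 3 LP+/+, 2 LPfl/+ and 3 LP245/+). The LP245/+ livers lie close together, with an SD of 0.10 for G0s2 to Pnpla2 against 0.61 in LP+/+.

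Of 32 other genes of droplet formation, lipid esterification and lipolysis, 31 were tested and 0 passed the cutoff in each of the 3 comparisons, with edgeR. At an unadjusted p below 0.05 there was 1 of 31 in LP245/+ versus LP+/+, 1 in LPfl/+ versus LP+/+ and 2 in LP245/+ versus LPfl/+, beside 5.93%, 6.89% and 8.51% of all genes. A positive fold change was found for 13 of the 31 in LP245/+ versus LP+/+ (median -0.02), 6 in LPfl/+ versus LP+/+ (median -0.10) and 22 in LP245/+ versus LPfl/+ (median 0.09), beside 50.6%, 49.8% and 50.8% of all genes. The LPfl/+ livers enter both of the last comparisons. Abhd5, the activator of the lipase, had a log2 fold change of -0.10 in LP245/+ (interval -0.38 to 0.19) and -0.03 in LPfl/+ (interval -0.34 to 0.29) against LP+/+. Mgll, monoacylglycerol lipase, had 0.01 and -0.10, and Lipe, hormone-sensitive lipase, -0.18 and 0.14, all with adjusted p-values of 0.893 or more. Pnpla3, a droplet acylhydrolase of the Pnpla2 family, had 221, 60 and 17 counts in LP+/+ livers, 55 and 58 in LPfl/+ livers, and 62, 42 and 88 in LP245/+ livers, so that LP+/+ held both its extremes. Plin1, the perilipin of adipocytes, was not tested, with 1 count in each LPfl/+ liver and 0 in the other 6.

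The lipins convert phosphatidate to diacylglycerol and also act in the nucleus. Lpin1 had 148, 150 and 293 CPM in LP+/+ livers, 171 and 67.3 in LPfl/+ livers, and 501, 220 and 278 in LP245/+ livers, and Lpin2 had 251, 309 and 483, then 335 and 193, then 575, 395 and 647. LP245/+ was above LPfl/+, at a log2 fold change of 1.48 for Lpin1 (standard error 0.48, adjusted p = 0.454) and 1.03 for Lpin2 (standard error 0.33, adjusted p = 0.446). Groups that do not overlap were found for 25.4% of all genes in this comparison, where genotype and library series cannot be told apart. Bscl2, which encodes seipin, a protein of droplet assembly, was lower in LP245/+ than in LP+/+ by a log2 fold change of -0.26 (unadjusted p = 0.0224, adjusted p = 0.795). The value was similar in LPfl/+ versus LP+/+, at -0.23 (adjusted p = 0.736), and it was -0.03 in LP245/+ versus LPfl/+ (adjusted p = 0.976). Gpat4, an acyltransferase of glycerolipid synthesis, had a log2 fold change of -0.36 in LPfl/+ versus LP+/+ (unadjusted p = 0.0442, adjusted p = 0.721), and Dgat1, which makes triglyceride, -0.21 (adjusted p = 0.744). Within the second library series Gpat4 had 146 CPM in LP+/+ replicate 1 and 144 and 139 in the LPfl/+ livers. LP+/+ replicates 2 and 3, of the first series, had 212 and 188.

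Of 12 transcription regulators of droplet genes, 0 passed the cutoff with edgeR in any comparison, and at an unadjusted p below 0.05 there were 0 in each comparison with LP+/+ and 3 in LP245/+ versus LPfl/+, where the shares of all genes were 5.93%, 6.89% and 8.51%. Those were Ppara, the receptor that drives fat oxidation, with a log2 fold change of 0.39 (adjusted p = 0.525), its partner Rxra with 0.31 (adjusted p = 0.538) and Foxo1, a factor of the fasted state, with 0.61 (adjusted p = 0.543). In this comparison genotype and library series cannot be told apart. Ppara had 159 CPM in LP+/+ replicate 1, of the second series, beside 154 and 167 in LPfl/+. It had 221 and 199 in LP+/+ replicates 2 and 3, of the first series, beside 201, 214 and 215 in LP245/+. In LP+/+ replicate 1 Foxo1 had 23.4 CPM, between the LPfl/+ livers (31.0 and 19.0). Rxra had 424 there, above both (371 and 341). Pparg, the fat-storage receptor, had log2 fold changes of -0.07 in LP245/+ and -0.24 in LPfl/+ versus LP+/+. Creb3l3, a liver factor of lipid metabolism, had -0.08 and 0.00.

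Over the 8 livers, 30 relations of the 10 members with Ppara, Pparg and Creb3l3 were computed on log2 values with 0.5 CPM added. Plin2 and Creb3l3 had a Pearson r of 0.94 (exact permutation p = 0.00107, Benjamini-Hochberg adjusted p = 0.0320) and a Spearman rho of 0.93 (exact permutation p = 0.00223, adjusted p = 0.0670). Without the 2 livers farthest from the median of Creb3l3, r was 0.92. It was 0.96 with the genotype means removed and 0.98 with the means of the library series removed, and the series hold 5 and 3 livers, too few for an r of their own. In the correlations of Plin2 with all tested genes, 1% of genes had an r above 0.77. Plin4 and Pparg had an r of 0.82 (exact permutation p = 0.0173, adjusted p = 0.257) and a rho of 0.79 (exact permutation p = 0.0279, adjusted p = 0.368), with an r of 0.65 without the 2 farthest livers and of 0.94 within library series. The other 28 relations had adjusted p-values of 0.257 or more.

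**Figure D5:**
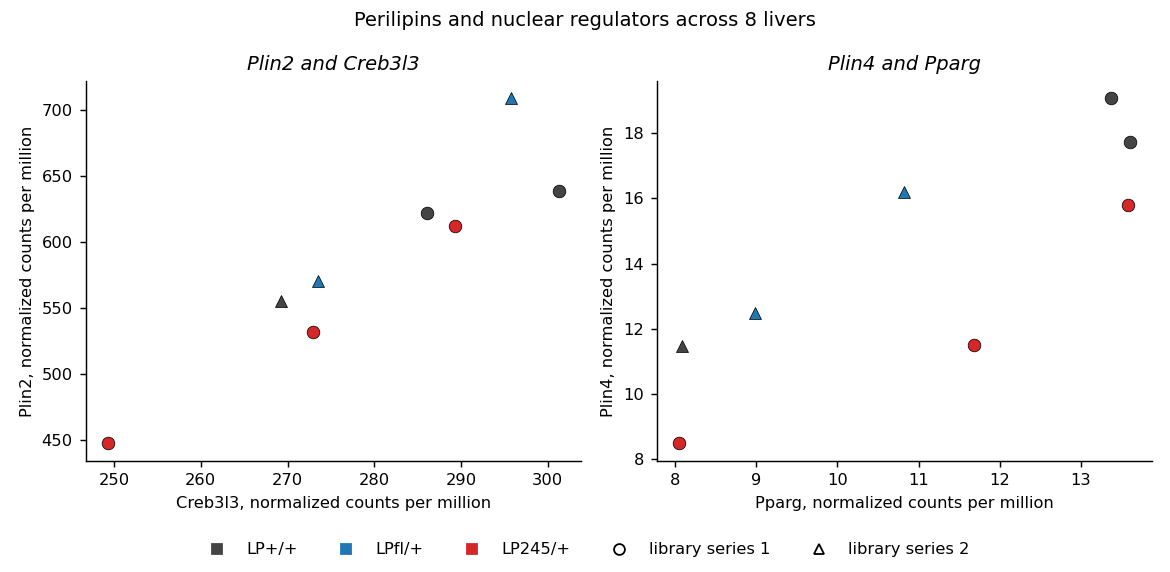
Normalized CPM of Plin2 against Creb3l3 and of Plin4 against Pparg, 1 point per liver, with colour for genotype, circles for the first and triangles for the second library series. Plin2 runs from 447 to 708 CPM along Creb3l3 (r = 0.94 on the log2 scale), with the 3 genotypes intermixed.

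The genes most like 3 of the members across the 8 livers were ranked by Pearson r of log2 CPM among all tested genes, as a description without a test. For Plin2 they were Mettl16 (r = 0.96), E130311K13Rik (0.96) and Gm44509 (0.95). For Cidec they were Tceanc2 (0.94), Eml1 (0.94) and Bcor (0.93), where the 99th percentile of all genes was 0.74. For Pnpla2 they were Panx1 (0.97), Gm48529 (0.97) and Sp2 (0.96), with the 99th percentile at 0.83. None of these 9 genes is a member.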

How the data were processed

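The authors deposited whole-number read counts per gene without normalization, from stranded total RNA libraries and paired 76-base reads aligned to GRCm38 with STAR and counted by STAR on GENCODE. The STAR version, GENCODE release and strand setting were not given in the sources used here. Groups followed the genotype labels, and all 8 columns matched a sample. Symbols, coordinates and exon lengths were taken from GENCODE M21.

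Counts were tested with edgeR 4.0.16 (R 4.3.3; TMM, filterByExpr by genotype, quasi-likelihood F test, all 8 livers in 1 fit) and adjusted by Benjamini-Hochberg over 16496 genes. Normalized CPM are counts scaled to the TMM-adjusted library size. Standard errors and 95% intervals came from the same fit. Ratios were tested by exact permutation with Python 3.11.15 and scipy 1.17.1. The lowest chi-square per gene between any pair of libraries was 19.9, so no library was a copy of another. No source says whether the livers of a genotype came from separate litters, and p-values measure the spread between these livers.

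The members and lists were chosen with earlier results of these data known. Named were all members and Trp53, from the other genes Abhd5, Pnpla3, Mgll, Lipe, Plin1 and the 5 with the smallest unadjusted p, from the regulators Ppara, Pparg, Creb3l3 and those with an unadjusted p below 0.05, and the 3 genes most like Plin2, Cidec and Pnpla2. Cell-type markers were summed to describe the tissue, and the adipocyte sums were also given by genotype beside Cidea. Alternatives were DESeq2 1.42.0, other scalings and filters, only the genotypes compared, library series, replicate block and each liver left out.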

Additional observations from a re-analysis of the deposited data

How the results depend on the processing

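No member passed the cutoff under any alternative that was run. Cidea could not be fitted under the filter of 10 counts in every liver or when LPfl/+ and LP+/+ were fitted alone. Counts over all genes moved: in LP245/+ versus LP+/+, LPfl/+ versus LP+/+ and LP245/+ versus LPfl/+ they were 1, 0 and 0 with edgeR, 10, 9 and 56 with DESeq2, 20, 14 and 122 without the filter on low counts, and 3, 59 and 47 without LP+/+ replicate 1. With only the 2 genotypes fitted, 51 genes passed in LP245/+ versus LPfl/+. Of 236 values under settings other than leaving out a liver, 222 kept their direction and their side of the threshold and 14 changed sign. With library totals only, Plin5 in LPfl/+ versus LP+/+ was 0.0042. With the library series as a covariate, LP245/+ versus LP+/+ gave -0.0213 for Cideb and -0.0049 for G0s2, LPfl/+ versus LP+/+ gave 0.322 for Plin4, 0.4618 for G0s2 and 0.4525 for Hsd17b13, and LP245/+ versus LPfl/+ gave -3.2495 for Cidea, -0.4667 for G0s2 and -0.6706 for Hsd17b13. The Cidea value rests on the 0 counts of LP+/+ replicate 1. Within library series the log2 ratio of G0s2 to Pnpla2 was -0.0609 for LP245/+ and 0.4061 for LPfl/+ versus LP+/+. Other causes were not tested.

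The replicate numbers do not pair the livers: deviations of same-numbered livers from their group means correlated between -0.0822 and 0.0339. With the replicate number as a block, 0 genes passed in each comparison, Hsd17b13 was 0.0211 in LP245/+ versus LP+/+, 0.0571 in LPfl/+ versus LP+/+ and -0.036 in LP245/+ versus LPfl/+, and in LPfl/+ versus LP+/+ Plin5 was 0.0158 and Pnpla2 -0.0449.

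Leaving out each liver in turn changed the sign of 26 of 240 fold changes, over 15 results. In LP245/+ versus LP+/+ the ranges were -0.0584 to 0.1326 for Plin3, -0.0207 to 0.12 for Cideb, -0.3375 to 0.3268 for Cidec, -0.0043 to 0.6121 for G0s2, -0.0751 to 0.2304 for Pnpla2 and -0.2176 to 0.1457 for Hsd17b13. In LPfl/+ versus LP+/+ they were -0.1015 to 0.2152 for Plin2, -0.1984 to 0.06 for Plin5, -0.0688 to 1.0348 for Cidea, -0.248 to 0.4261 for Cidec, -0.4001 to 0.2139 for G0s2, -0.0241 to 0.0487 for Pnpla2 and -0.3102 to 0.0482 for Hsd17b13. In LP245/+ versus LPfl/+ they were -0.321 to 0.1604 for Cidec and -0.0886 to 0.2174 for Pnpla2. For the log2 ratios, G0s2 to Pnpla2 ran from -0.0609 to 0.5375 for LP245/+ and from -0.3737 to 0.2247 for LPfl/+ versus LP+/+, Cidec to Cideb from -0.2792 to 0.2984 for LP245/+ versus LP+/+, and Plin2 to Plin5 from -0.1364 to 0.3693 for LPfl/+ versus LP+/+ and from -0.2404 to 0.2654 for LP245/+ versus LPfl/+. With 1 LPfl/+ liver left, its spread was taken from the other genotypes. The size of difference that 2 or 3 livers per genotype can detect was not measured, and log2 fold changes of 2.38 (Cidea) and 1.48 (Lpin1) did not pass after adjustment.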
